A study of Mus musculus with 44 samples.

Results

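The genes described here are 9 members of the GDNF family and neurotrophin signalling pathways in mouse skin: the ligands Gdnf, Nrtn and Artn, their co-receptors Gfra1, Gfra2 and Gfra3, the receptor kinase Ret, the p75 neurotrophin receptor Ngfr, and the neurotrophin Ntf3. They were listed by name, with no threshold on their values but with earlier results of these data known, and were found by Ensembl identifier among the 43411 genes of the table. All 9 had a mean normalized count above 3, the limit for testing, which 17037 genes passed.

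Skin was taken from 44 wild type (WT) C57Bl/6 female mice that were 8 weeks old when injections began. Saline was given to 10 mice, and bleomycin, a drug that damages DNA and is used to model the skin fibrosis of systemic sclerosis, was injected daily under the back skin in a volume of 100 uL at 1 U/mL for 2 weeks in 10 mice and for 4 weeks in 10 mice. In 6 and 8 further mice, bleomycin was stopped after 4 weeks and the skin was taken after 6 and 10 weeks of recovery. The labels give a single saline group with no time point, so every comparison with saline shares the same 10 mice, and time and age differ between groups together with treatment. Each mouse gave 1 biopsy of whole back skin, in which fewer cells of a type and less RNA per cell cannot be told apart.

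The GDNF family ligands signal through a shared kinase, Ret, which is recruited by a co-receptor anchored to the outer face of the cell membrane. Each ligand has a preferred co-receptor: GDNF binds the Gfra1 protein, neurturin (Nrtn) binds Gfra2, and artemin (Artn) binds Gfra3. Neurotrophins bind Trk kinases and share the p75 receptor (Ngfr), which can also act without them. In skin, sensory axons carry the Ret and co-receptor proteins, while Schwann cells, hair follicle cells and keratinocytes are known sources of the ligands. The values given here are of mRNA in the biopsy, not of protein.

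Between 8509094 and 15285577 reads per mouse lay on genes, with a median of 11310008. The skin label was checked by epidermal markers, and the summed level of 6 basal keratinocyte genes lay between 89403 and 177155 normalized counts. Muscle was in the biopsies as well, with 10 muscle fibre genes that summed to between 102909 and 479433. The lowest agreement with their own groups was found for saline mouse 1 (median r 0.942) and for mouse 2 of bleomycin 2 weeks (0.938). No clear break followed, with 0.947 for mouse 4 of recovery 10 weeks and 0.949 for saline mouse 6, so the cut after the first 2 is arbitrary. Saline mouse 1 had the lowest level of 6 members within its group and the highest of Ret, and mouse 2 of bleomycin 2 weeks had the lowest level of 6 members and the highest of Nrtn. Results are therefore also given for the 42 mice that remain without saline mouse 1 and mouse 2 of bleomycin 2 weeks.

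Artn is the ligand whose level moved most, and Nrtn the ligand with the highest level per length, so the RefSeq promoters of both genes (GRCm38.p6, 250 bases before to 50 after the start, minus strand in both) are shown. Capitals mark the GC box GGGCGG on either strand, and positions are counted from 1 at the 5′ end. In RefSeq, 6 of the 9 members matched a promoter entry.
Artn, chr4:117929714-117930013: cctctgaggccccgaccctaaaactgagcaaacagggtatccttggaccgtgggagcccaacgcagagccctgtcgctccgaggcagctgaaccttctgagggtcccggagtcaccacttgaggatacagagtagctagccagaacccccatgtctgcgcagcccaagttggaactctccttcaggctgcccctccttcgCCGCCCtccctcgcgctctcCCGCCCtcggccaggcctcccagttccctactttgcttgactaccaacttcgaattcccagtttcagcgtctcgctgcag
Nrtn, chr17:56757499-56757798: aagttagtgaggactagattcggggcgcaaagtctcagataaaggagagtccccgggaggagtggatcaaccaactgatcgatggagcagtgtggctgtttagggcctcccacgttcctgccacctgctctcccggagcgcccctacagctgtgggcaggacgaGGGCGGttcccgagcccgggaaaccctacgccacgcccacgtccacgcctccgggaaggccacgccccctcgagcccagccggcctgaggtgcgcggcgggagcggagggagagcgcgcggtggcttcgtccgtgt
The Artn promoter held 2 GC boxes, beginning at positions 201 and 221, and the Nrtn promoter held 1, beginning at position 165. A GC box was present in 35.7% of 32851 mouse promoters of this length. Neither promoter held the AP-1 letters TGANTCA (7.8% of promoters), a CCAAT box (CCAAT, 37.4%) or a TATA box (TATAAA, 13.6%) on either strand.

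A gene was called where its level differed by more than 1.5-fold (0.585 on the log2 scale) with a Benjamini-Hochberg adjusted p below 0.05, by limma over the 17037 genes tested. After 2 weeks of bleomycin, 2 of 9 members were called against saline, both lower, beside 16.7% of all genes tested. After 4 weeks 3 of 9 were called, 2 higher and 1 lower, beside 17.9% of all genes. After 6 weeks of recovery 2 of 9 were called, both higher, beside 5.04%, and after 10 weeks of recovery 0 of 9 were called, beside 3.05%. The median log2 fold change of the members against saline was 0.01, 0.29, 0.24 and 0.28 in this order, while that of all genes was 0.00 in each comparison. Between consecutive groups, 2 members were higher at 4 weeks than at 2 weeks of bleomycin, beside 2.35% of genes called. In the 6 weeks after bleomycin was stopped 1 member rose, beside 11.9%, and between 6 and 10 weeks of recovery none of the 9 was called, beside 0.088%. From the end of bleomycin to 10 weeks of recovery 4 of 9 were called, beside 15.8%, with Gfra2 (0.78) and Ret (0.97) higher and Artn (-0.84) and Gfra3 (-0.62) lower on the log2 scale (adjusted p = 0.000474, 0.0161, 0.00332 and 0.0138).

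**Figure D1:**
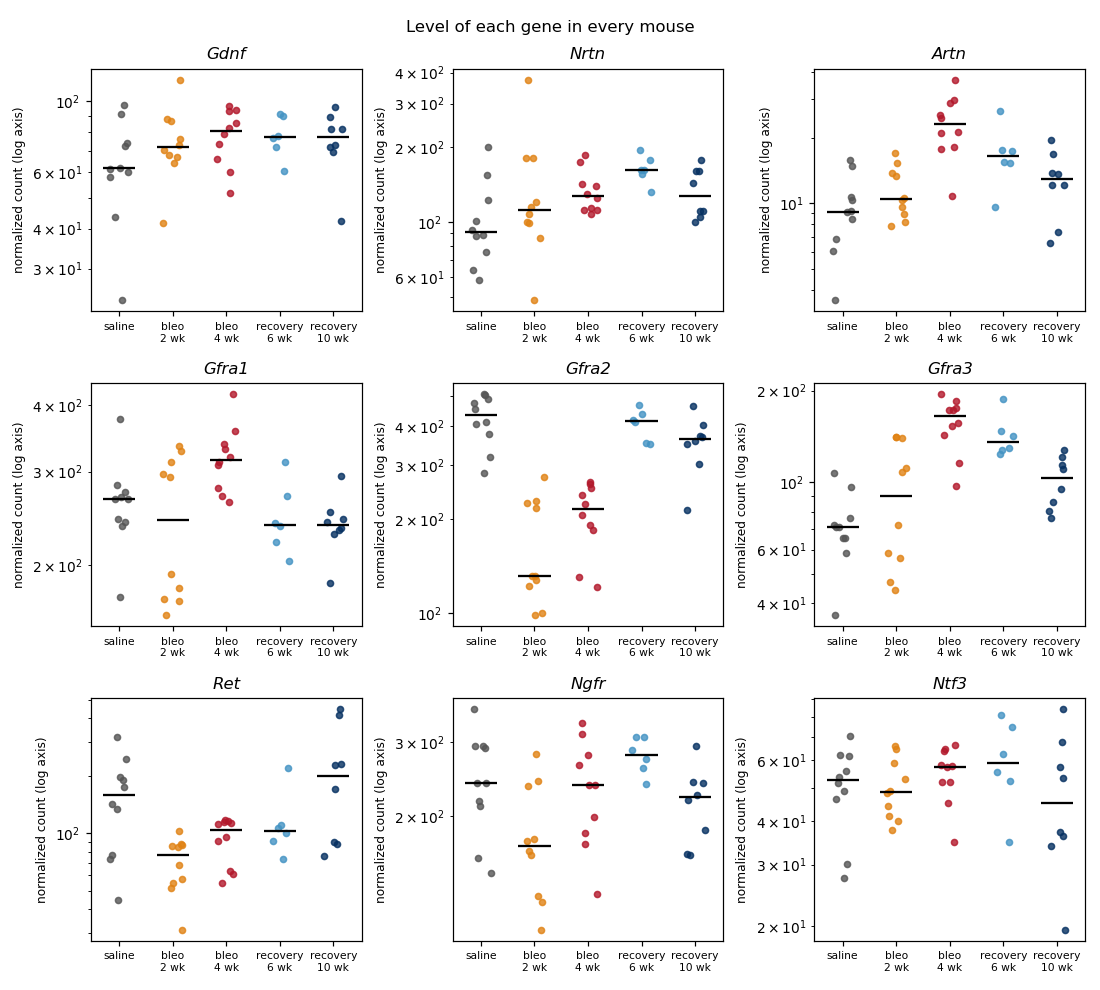
Level of each of the 9 genes in every mouse, as normalized count on a log axis, by treatment group, with a line at the group median. Gfra2 lay lower in every mouse of the bleomycin 2 weeks and 4 weeks groups than in any saline mouse, Artn and Gfra3 were highest at 4 weeks of bleomycin, and Ret was widely spread in the saline and 10 week recovery groups.

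Among the co-receptors, Gfra2 (chr14:70890120-70979838, plus strand, GRCm38, with 3539 bases of annotated exon) changed most. It ranged from 281 to 506 normalized counts in saline mice, with a median of 433. In bleomycin 2 weeks mice it ranged from 98.6 to 275, with a median of 132, and in bleomycin 4 weeks mice from 121 to 265, with a median of 216. No mouse of these 2 groups reached the lowest saline mouse, a separation seen in 4.77% of all genes at 2 weeks and 6.52% at 4 weeks. Gfra2 fell by 1.41 ± 0.16 (SE, log2 scale, adjusted p = 3.14e-09) at 2 weeks and by 1.04 ± 0.16 (adjusted p = 2.08e-06) at 4 weeks. Without saline mouse 1 and mouse 2 of bleomycin 2 weeks, the differences were -1.40 and -1.10. Fat cell genes moved with Gfra2, with 3 and 4 of 6 lower in the bleomycin groups and none called in recovery, and their summed level ran from 15272 to 21625 normalized counts in saline, from 9096 to 18163 and from 9443 to 13352 under bleomycin, and from 14241 to 19794 and from 15581 to 29420 in recovery. Of 8 fibroblast genes, 4 and 2 were lower in the bleomycin groups and 1 in each recovery group, with sums of 102263 to 234510 in saline, 52527 to 178341 and 86517 to 230837 under bleomycin, and 154045 to 247222 and 86171 to 139966 in recovery. All 9 growing hair follicle genes tested were also lower in both bleomycin groups, and none was called in recovery. The part of these lists in the fall of Gfra2 was not tested.

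In recovery, Gfra2 lay between 349 and 467 normalized counts at 6 weeks (median 415) and between 215 and 464 at 10 weeks (median 364). All 6 mice at 6 weeks were inside the saline range, and at 10 weeks 1 of 8 mice was below it. At 6 weeks of recovery every mouse was above every mouse of bleomycin 4 weeks, as was so in either direction for 10.2% of all genes, with a log2 difference of 1.00 ± 0.19 (adjusted p = 9.34e-05). Against saline the log2 difference was -0.04 (95% interval -0.42 to 0.34) at 6 weeks and -0.26 (-0.61 to 0.09) at 10 weeks. In the order of mean level, saline, recovery 6 weeks and recovery 10 weeks were not called as different from their neighbours, and neither were bleomycin 4 weeks and 2 weeks. Recovery 10 weeks was higher than bleomycin 4 weeks, its neighbour in that order, with 7 of its 8 mice above every mouse of that group.

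Gfra3 moved the other way. It ranged from 36.5 to 107 normalized counts in saline mice (median 71.2), and after bleomycin from 44.2 to 141 at 2 weeks (median 89.9) and from 96.8 to 195 at 4 weeks (median 165). In recovery it ranged from 123 to 188 at 6 weeks (median 136) and from 76.3 to 127 at 10 weeks (median 103). At 4 weeks of bleomycin 9 of 10 mice were above the highest saline mouse, and the rise was 1.13 ± 0.19 (log2, adjusted p = 4.69e-06). At 6 weeks of recovery all 6 mice lay above all saline mice, a separation found in 1.95% of genes, and Gfra3 was still higher by 1.01 ± 0.22 (adjusted p = 0.00188). At 10 weeks it was 0.51 ± 0.20 above saline and did not pass the test (adjusted p = 0.12), and no member had separate groups there, beside 0.428% of genes.

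Gfra3 was higher at 4 weeks than at 2 weeks of bleomycin by 0.87 ± 0.19 (adjusted p = 0.00391). None of the neighbours in the order bleomycin 4 weeks, recovery 6 weeks, recovery 10 weeks, bleomycin 2 weeks and saline were called as different. Gfra3 was among the genes that the study singled out for their relation to collagen bundle alignment in these mice, so its change is not independent evidence for it. Without the pair of mice named above, the log2 differences from saline were 1.18 at 4 weeks of bleomycin and 1.07 at 6 weeks of recovery.

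Gfra1 (chr19:58235604-58455909, minus strand), the co-receptor of GDNF, was not called in any of these comparisons. Its medians were 267 normalized counts in saline, 243 and 316 after 2 and 4 weeks of bleomycin, and 239 and 238 at 6 and 10 weeks of recovery. It was 0.43 ± 0.13 (log2, adjusted p = 0.0333) higher at 4 than at 2 weeks of bleomycin, which is under the 1.5-fold limit. After 2 weeks of bleomycin 5 mice had between 161 and 193 normalized counts of Gfra1 and 5 had between 293 and 336, with none between. The same 5 mice that were low in Gfra1 were also the 5 lowest in Gfra3, where they had 44.2 to 72.0 against 108 to 141. Gfra2 had no value between 132 and 218 normalized counts in that group, and these 5 mice and mouse 4 lay below the gap. An antisense gene, Gm16277, overlaps Gfra1 on the opposite strand, and whether the counting used strand is not given in the sources used here.

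**Figure D2:**
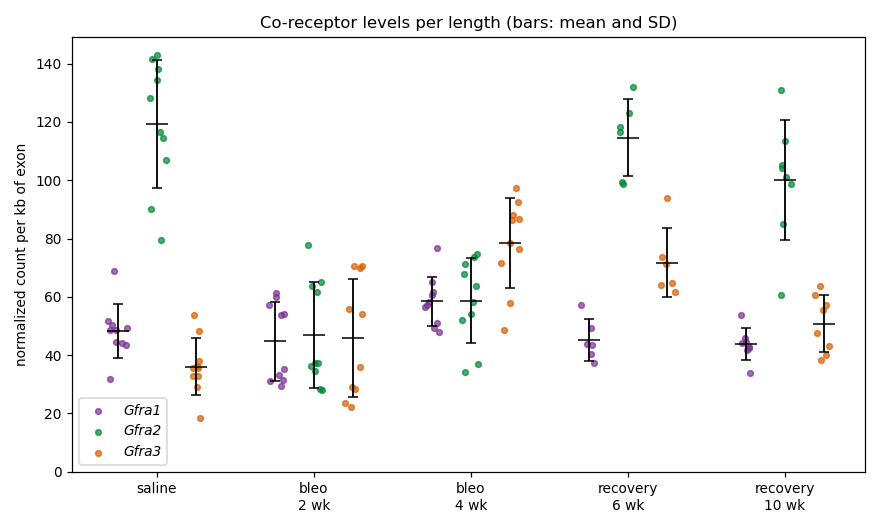
Levels of the co-receptors Gfra1, Gfra2 and Gfra3 per kilobase of exon, as normalized count per kb on a linear axis, for each mouse by group, with a bar at the mean and SD. Per kb, Gfra2 was the highest of the 3 in saline and in recovery, and the 3 levels overlapped after 2 weeks of bleomycin. Gfra3 exceeded Gfra2 per kb in every mouse after 4 weeks. As normalized counts, the mean of Gfra2 (208) was above that of Gfra3 (157) in that group.

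Per length of exon, the balance of the co-receptors differed between groups. In saline, the median level of Gfra2 per kb was 3.61 times that of Gfra3 within a mouse (range 1.64 to 4.92), and this ratio was 1.13 after 2 weeks and 0.794 after 4 weeks of bleomycin. At 4 weeks the ratio lay between 0.514 and 0.904, below 1 in all 10 mice. As normalized counts, the mean of Gfra2 was 208 and that of Gfra3 was 157 in that group. The ratio per kb was 1.63 at 6 weeks and 2.05 at 10 weeks of recovery, above 1 in every mouse of both groups but with a median under that of saline. The ratio of Gfra2 to Gfra1 per kb was 2.63 in saline, 1.09 and 0.998 after 2 and 4 weeks of bleomycin, and 2.56 and 2.28 in recovery. These ratios describe the levels tested gene by gene above and were not tested again. The lengths join all annotated exons of a gene, 3539 bases for Gfra2 and 1997 for Gfra3. The lengths over which reads were counted are not given in the sources used here. Whether a ratio is above or below 1 depends on the lengths, while the order of the groups does not.

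Among the ligands, Artn (chr4:117926162-117929763, minus strand) was called. It is the ligand of the Gfra3 protein and was the lowest of the 9 members, counted on 3 to 47 reads per mouse, so counting error is a large part of its spread. It ranged from 3.58 to 15.8 normalized counts in saline (median 9.15), from 7.86 to 17.0 after 2 weeks of bleomycin (median 10.5), from 10.8 to 37.0 after 4 weeks (median 23.0), from 9.62 to 26.7 at 6 weeks of recovery (median 16.4) and from 6.58 to 19.6 at 10 weeks (median 12.9). At 4 weeks 9 of 10 mice were above the highest saline mouse.

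Artn rose by 1.25 ± 0.21 (log2 of the normalized count plus 1, adjusted p = 7.36e-06) at 4 weeks of bleomycin, a 2.38-fold difference, and was 0.95 ± 0.21 higher than at 2 weeks (adjusted p = 0.00589). At 6 weeks of recovery it was higher than saline by 0.81 ± 0.25 (adjusted p = 0.0293), with all 6 mice above the saline mean. This call was lost in the 42 mice (0.69, adjusted p = 0.0527), and also when saline mouse 1 or 5 or recovery 6 weeks mouse 3 or 5 alone was left out (adjusted p from 0.0512 to 0.105). Across 10 alternative settings its adjusted p there ranged from 0.0224 to 0.0743, and 7 of the 10 kept the call. No neighbours in the order of its levels (bleomycin 4 weeks, recovery 6 weeks, recovery 10 weeks, bleomycin 2 weeks, saline) were called as different.

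Artn and Gfra3 were the 2 members called as higher at 4 weeks of bleomycin. Per kb, the level of Artn was 0.111 times that of Gfra3 in saline, 0.111 and 0.125 after 2 and 4 weeks of bleomycin, and 0.0931 and 0.103 in recovery (medians of the ratio within a mouse). The ligand was below its co-receptor in every mouse.

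Nrtn (chr17:56751325-56757530, minus strand), the ligand of the Gfra2 protein, was not called. It ranged from 58.4 to 201 normalized counts in saline (median 90.9), from 48.3 to 375 after 2 weeks of bleomycin (median 111), from 108 to 186 after 4 weeks (median 128), from 132 to 196 at 6 weeks of recovery (median 162) and from 99.6 to 177 at 10 weeks (median 127). The value of 375 belongs to mouse 2 of bleomycin 2 weeks. At 6 weeks of recovery Nrtn was 0.73 ± 0.25 above saline, with 6 of 6 mice above the saline mean, and the adjusted p of 0.0525 just missed the threshold. In the 42 mice the difference was 0.65 with an adjusted p of 0.0379, which passed. Over 10 alternatives its adjusted p ranged from 0.0379 to 0.0881, and 3 passed.

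Per kb, Nrtn exceeded Gdnf and Artn in every mouse. Its level was 0.732 times that of Gfra2 in saline, and 2.57 and 2.24 times after 2 and 4 weeks of bleomycin. In recovery the ratio was 1.40 and 1.23. It was above 1 in 2 of 10 saline mice, and in 10 of 10 mice after 4 weeks of bleomycin. This too depends on the exon lengths. As normalized counts, the mean of Nrtn was below that of Gfra2 in each group, with 134 against 208 after 4 weeks.

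Gdnf (chr15:7810846-7837575, plus strand), which supports motor and sensory neurons, passed in no comparison. Its medians lay between 61.7 normalized counts in saline and 80.9 after 4 weeks of bleomycin. Its differences from saline were between 0.27 and 0.35 on the log2 scale in the 4 groups, with adjusted p from 0.125 to 0.441. In the 42 mice these differences were between 0.14 and 0.21. The 95% interval at 4 weeks ran from -0.01 to 0.69, which reaches past the 1.5-fold limit and past 0.

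**Figure D3:**
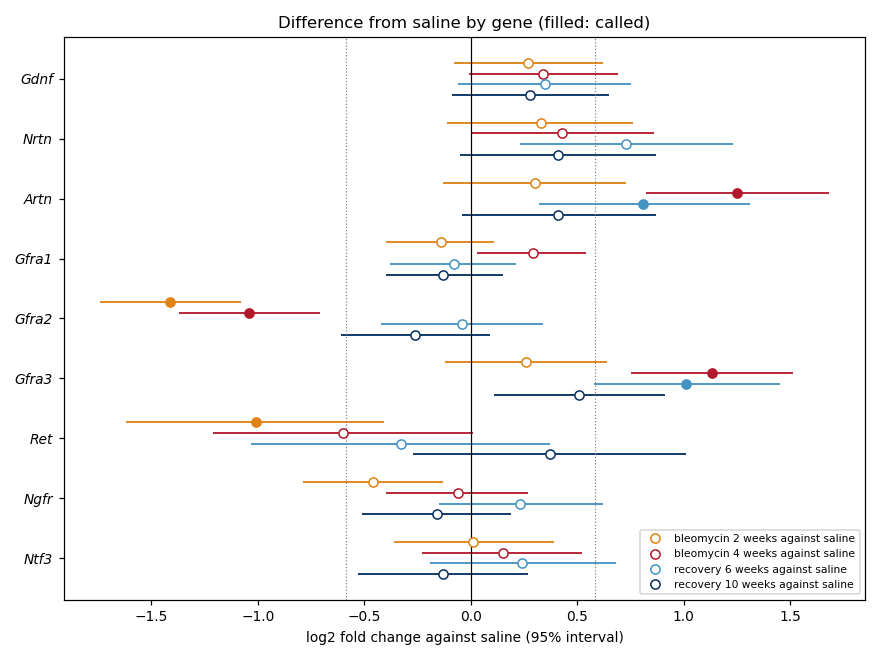
Difference of each gene from saline as log2 fold change of the normalized count plus 1, with 95% intervals, in the 4 groups. Filled points passed the test, and the dotted lines mark the 1.5-fold limit. Gfra2 and Ret lie to the left at 2 weeks of bleomycin, and Artn and Gfra3 to the right at 4 weeks of bleomycin and 6 weeks of recovery.

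Ret (chr6:118151745-118197718, minus strand), the kinase shared by the GDNF family, was lower after 2 weeks of bleomycin. It ranged from 44.5 to 320 normalized counts in saline (median 158), from 31.2 to 103 after 2 weeks of bleomycin (median 76.6), from 54.7 to 117 after 4 weeks (median 104), from 72.8 to 219 at 6 weeks of recovery (median 103) and from 75.8 to 448 at 10 weeks (median 198). The groups overlapped, although every mouse of both bleomycin groups lay below the saline mean of 159. Ret fell by 1.01 ± 0.30 (log2, adjusted p = 0.00668) at 2 weeks, and by 0.76 (adjusted p = 0.0423) in the 42 mice.

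At 4 weeks the difference of Ret from saline was -0.60 ± 0.30 (adjusted p = 0.115), which was not called. It was called by edgeR (-0.73, adjusted p = 0.045) and DESeq2 (-0.76, adjusted p = 0.0257), and without saline mouse 2 (-0.78, adjusted p = 0.0304). At 6 and 10 weeks of recovery the differences from saline were -0.33 ± 0.35 and 0.37 ± 0.32. At 10 weeks of recovery Ret was spread from 75.8 to 448, with 3 mice under 90 and 2 above 400. The order of mean level was recovery 10 weeks, saline, recovery 6 weeks, bleomycin 4 weeks and bleomycin 2 weeks, and no neighbours in it were called as different.

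Genes of the growing hair follicle were lower in both bleomycin groups, while Ret was called lower at 2 weeks and not at 4 weeks. Of 9 such genes tested (the hair keratins Krt25, Krt27, Krt28, Krt31, Krt35 and Krt71 and the regulators Msx2, Hoxc13 and Lef1), 9 were lower at 2 weeks (median log2 difference -7.14) and 9 at 4 weeks of bleomycin (-6.06), and none was called at 6 weeks (-1.98) or 10 weeks (-0.02) of recovery. Their summed level ran from 2135 to 212807 normalized counts in saline, from 186 to 1952 and from 216 to 4859 in the bleomycin groups, and from 338 to 98882 and from 1506 to 160551 in recovery. Krt25, a keratin of the inner root sheath, had means of 13800 in saline and 52.7 after 2 weeks of bleomycin. Of 6 melanocyte genes, 5 were lower at 2 weeks of bleomycin and 0 in the other groups, with summed levels of 682 to 11594 normalized counts in saline and 672 to 1905 at 2 weeks. Their part in the change of Ret was not tested.

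Within groups, Ret followed the hair follicle score, the mean log2 level of those 9 genes. Over the deviations of the 44 mice from their group means, Pearson r was 0.64 and Spearman rho 0.53 (two-sided permutation within groups, p = 4e-05 and 0.00074, adjusted over 27 member and score pairs 0.00036 and 0.004). Without the 2 mice farthest in score r was 0.61, and in the 42 mice it was 0.62. By group, r was 0.88 in saline, 0.87 at 6 weeks and 0.86 at 10 weeks of recovery, while it was 0.20 and -0.20 in the bleomycin groups, where the score lay between 3.16 and 7.83, against 6.85 to 13.1 in saline.

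**Figure D4:**
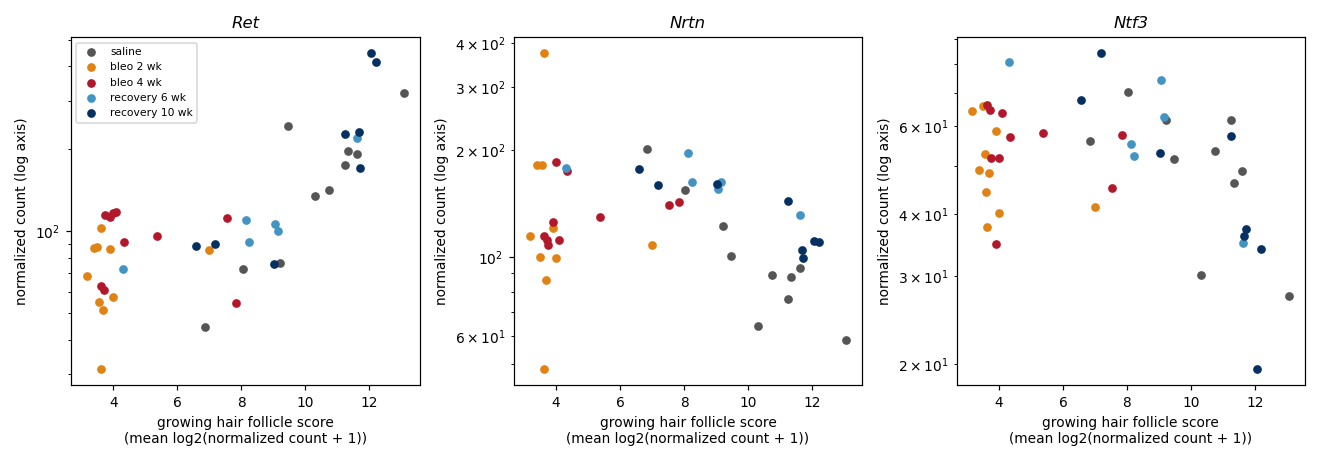
Levels of Ret, Nrtn and Ntf3 (normalized count, log axis) against the growing hair follicle score (mean log2 of the normalized count plus 1 over 9 genes), 1 point per mouse coloured by group. Ret rose with the score within the saline and recovery groups, and Nrtn and Ntf3 fell with it.

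Nrtn, Ntf3 and Gdnf went against the hair follicle score. For Nrtn r was -0.40 and rho -0.45 (permutation p = 0.00195 and 0.00201, adjusted 0.00752 and 0.00904), -0.41 without the 2 farthest mice, and -0.90, -0.72 and -0.89 in saline and at 6 and 10 weeks of recovery. In the bleomycin groups it was -0.11 and 0.26. For Ntf3 r was -0.61 and rho -0.59 (permutation p = 0.00014 and 0.0002, adjusted 0.000756 and 0.0018), and -0.56 without the 2 farthest mice. Its r was below 0 in each of the 5 groups, from -0.81 at 10 weeks of recovery to -0.13 after 4 weeks of bleomycin. For Gdnf, which is not plotted, r was -0.36 and rho -0.39 (permutation p = 0.0174 and 0.011, adjusted 0.0362 and 0.027) and -0.33 without the 2 farthest mice. It was below 0 in each group, from -0.79 at 6 weeks of recovery to -0.18 after 2 weeks of bleomycin, and did not pass in the 42 mice (-0.31, permutation, adjusted p = 0.165). For Gfra2 r with the hair follicle score was -0.09 and rho -0.07 (permutation p = 0.531 and 0.646, adjusted 0.681 and 0.727), which did not pass. Artn, Gfra1, Gfra3 and Ngfr did not pass with this score either.

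Of the neurotrophin genes, Ngfr (chr11:95568818-95587735, minus strand) encodes the p75 receptor, which Schwann cells carry before they make myelin and again after nerve injury. It ranged from 145 to 361 normalized counts in saline (median 239.7), from 107 to 281 after 2 weeks of bleomycin (median 169), from 130.0 to 334 after 4 weeks (median 237), from 239 to 309 at 6 weeks of recovery (median 280.5) and from 161 to 294 at 10 weeks (median 221). At 2 weeks it was 0.46 ± 0.16 lower than saline (log2 difference -0.46, adjusted p = 0.0249), with 9 of 10 mice below the saline mean, a difference under the 1.5-fold limit that was not called. The differences from saline in the other groups were -0.06, 0.23 and -0.16, with none called. At 6 weeks of recovery all 6 mice lay above the mean of bleomycin 2 weeks, and Ngfr was higher than in that group by 0.70 ± 0.19 (log2, adjusted p = 0.00411, beside 15.3% of all genes called). In the order of its mean levels (recovery 6 weeks, saline, bleomycin 4 weeks, recovery 10 weeks, bleomycin 2 weeks) no neighbours were called as different.

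Ntf3 (chr6:126101412-126166910, minus strand), the ligand of the kinase TrkC, was not called in any comparison. Its medians were 52.6 normalized counts in saline, 48.6 and 57.4 after 2 and 4 weeks of bleomycin, and 58.9 and 45.2 in recovery. The differences from saline were 0.01, 0.15, 0.24 and -0.13 on the log2 scale, with 95% intervals that all stayed between -0.53 and 0.68.

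The other genes of these pathways were taken from 5 lists with 41 genes, of which 36 could be tested (Pspn, Gfral, Shc3, Dok6 and Vgf were below the limit). Against saline, 2 were higher and 4 lower at 2 weeks of bleomycin, 3 higher and 4 lower at 4 weeks, 1 higher and 1 lower at 6 weeks of recovery, and 1 higher at 10 weeks. The medians were -0.19, -0.04, 0.06 and 0.01, beside 0.00 for all genes. These shares lay near the share of all genes called in each comparison.

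Among the other ligands, the largest difference was in Gdf15, a distant relative of GDNF that signals through Ret and the co-receptor Gfral in the hindbrain. Its mean was 3.12 normalized counts in saline, 61.4 and 67.0 after 2 and 4 weeks of bleomycin, and 14.9 and 8.59 in recovery. It rose by 3.90 ± 0.23 and 4.06 ± 0.23 under bleomycin (adjusted p = 6.51e-18 and 2.26e-18), and was still higher by 2.00 ± 0.27 and 1.21 ± 0.24 in recovery (adjusted p = 1.39e-06 and 0.00155). Its receptor Gfral had at most 1.91 normalized counts in any mouse.

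Among the receptors, Ncam1, an adhesion molecule that can act as a Ret-independent receptor for GDNF, was 1.08 ± 0.19 higher at 4 weeks (adjusted p = 1.76e-05). Ncam1 was 0.64 ± 0.22 lower at 6 weeks of recovery than at 4 weeks of bleomycin (log2 difference -0.64, adjusted p = 0.0322). Ntrk3, which encodes TrkC, was lower at 2 weeks by 0.90 ± 0.29 (log2 difference -0.90, adjusted p = 0.0117), as was Lingo1, a partner of p75, at 2 and 4 weeks (log2 differences -1.42 and -0.70). Gfra4 and Bdnf were not called against saline.

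Downstream, the adaptor Dok4, which docks on Ret, was lower at 2 and 4 weeks of bleomycin, with log2 differences of -1.17 ± 0.14 and -1.33 ± 0.14 (adjusted p = 3.7e-09 and 1.51e-10), without overlap with saline. Such a separation was seen in 4.77% of all genes at 2 weeks and 6.52% at 4 weeks. Dok5, a related adaptor, was lower at 4 weeks (-0.72, adjusted p = 0.00327). Both were higher at 6 weeks of recovery than at 4 weeks of bleomycin, Dok4 by 0.85 ± 0.16 and Dok5 by 1.21 ± 0.23, as was Rtn4r (0.79). Etv4, a transcription factor induced by ERK signalling, was lower at 2 weeks, 4 weeks and 6 weeks of recovery (-1.01, -0.94 and -1.10, adjusted p = 0.000116, 0.00031 and 0.00215). The other 6 tested genes of the ERK list, among them Dusp6 and Egr1, were not called against saline. Without the fold limit, 5, 2, 2 and 1 of the 7 tested genes passed in the 4 groups in order of time. All of these were lower, beside 35.6%, 36.6%, 9.08% and 5.83% of all genes passing in either direction.

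Schwann cell genes were higher in the groups where Gfra3 and Artn were called against saline, and some also where neither was called. Of 12 such genes, 2 and 10 were higher than saline in the bleomycin 2 weeks and 4 weeks groups, and 10 and 6 in the recovery 6 weeks and 10 weeks groups, with none lower. Their summed level had a median of 7052 normalized counts in saline (4760 to 9408), 8674 (6452 to 11057) and 10077 (8506 to 11950) after 2 and 4 weeks of bleomycin, and 11442 (8880 to 12681) and 9214 (7906 to 12106) in recovery. Sox10, the transcription factor that sets the lineage, was higher by 0.69, 0.93 and 0.60 (log2) in the last 3 of these groups. No gene of the list was at 0 in all mice of a group. The list's part in the changes of Gfra3 and Artn was not tested.

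**Figure D5:**
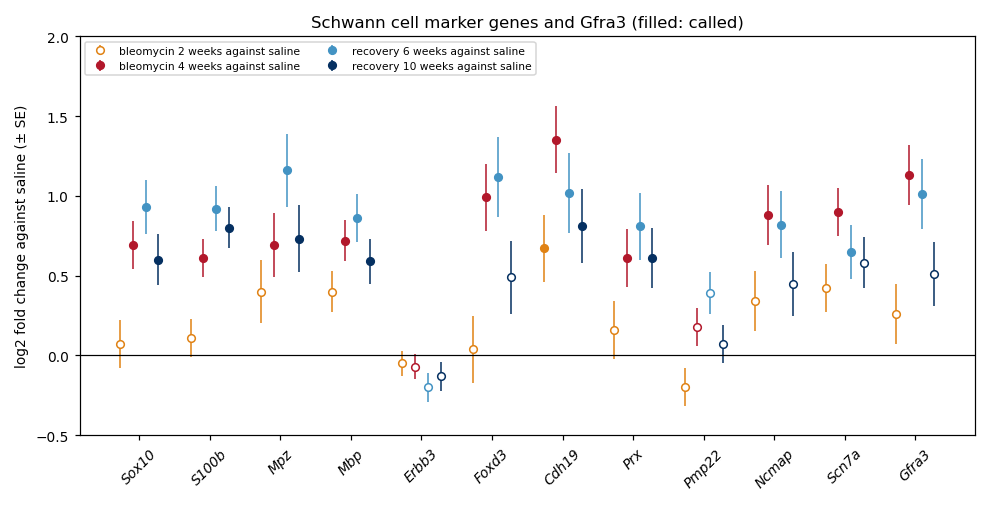
Log2 fold change against saline (± SE) of 11 of the 12 Schwann cell genes and of Gfra3 in the 4 groups, with filled points for calls. At 4 weeks of bleomycin and 6 weeks of recovery 9 of the 11 plotted genes were called, as was Gfra3, and Erbb3 and Pmp22 were not called in any group.

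Other lists moved in the same groups. Of 10 genes tied to the repair state of Schwann cells after nerve injury, which include Ngfr, Gdnf and Artn themselves, 1, 4, 3 and 1 were higher than saline in the 4 groups in order of time, and Shh was lower in the first 3. Gap43, a growth cone protein in that list, was higher in all 4 (1.45, 1.75, 1.61 and 1.09). Of 10 axon and sensory neuron genes, 9 were found and 4 had a mean above 3, the limit for testing. Prph and Nefh lay near that limit, with means of 4.61 and 3.36 normalized counts. The mean is taken over all groups, so a gene near the limit can pass it through the groups where it is high. This favours calls of higher over lower for such genes. Of the 4 tested, 3, 2, 1 and 2 were higher, among them Uchl1. Its mean was 13.5 normalized counts in saline and 68.6 at 4 weeks of bleomycin. Of 9 genes of denervated or regenerating muscle, 7, 7, 5 and 3 were higher, among them Chrna1, a subunit of the acetylcholine receptor, by 2.88 and 3.28 under bleomycin. Of 6 mast cell genes 5, 5, 3 and 0 were higher, of 8 endothelial genes 3, 3, 5 and 0, and of 8 macrophage genes 5, 5, 0 and 0, while the macrophage gene Cd163 was lower in all 4 groups (-1.31, -1.70, -1.76 and -1.49). The part of these lists in the members' changes was not tested.

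Within groups, Gfra2, Ngfr and Ntf3 followed the Schwann cell score, the mean log2 level of the 12 Schwann cell genes. Over 44 mice r was 0.59, 0.60 and 0.61 and rho 0.53, 0.56 and 0.62 (two-sided permutation, p = 0.00012, 4e-05 and 2e-05, adjusted over the 27 pairs 0.000756, 0.00036 and 0.00036). Adjusted p of rho was 0.00378, 0.0018 and 0.00162 by permutation. Without the 2 farthest mice r was 0.50, 0.50 and 0.55, and in the 42 mice 0.50, 0.49 and 0.54. By group, r of Gfra2 was 0.86 in saline, 0.79 and 0.22 after 2 and 4 weeks of bleomycin, and 0.24 and 0.31 at 6 and 10 weeks of recovery. For Ngfr it was 0.78 in saline, 0.78 and 0.18 under bleomycin, and 0.20 and 0.61 in recovery. Gfra1 passed too (r = 0.44, rho = 0.47, permutation p = 0.0128 and 0.00441, adjusted 0.0288 and 0.0132), with 0.39 without the 2 farthest mice, but not in the 42 mice (0.38, permutation, adjusted p = 0.0967).

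For Gfra3 r with the Schwann cell score was 0.39 (permutation p = 0.0324, adjusted 0.0582), which did not pass, and it was 0.44 in the 42 mice (permutation, adjusted p = 0.0423), which did. By group it was -0.24 in saline, 0.64 and 0.40 after 2 and 4 weeks of bleomycin, and 0.69 and 0.73 in recovery. For Artn r was 0.30, which did not pass (permutation p = 0.0598, adjusted 0.101). In all, 14 of the 27 pairs passed in 44 mice and 8 in the 42 mice. For Gdnf with the Schwann cell score r was 0.47 and rho 0.35 (permutation p = 0.00405 and 0.0267, adjusted 0.0121 and 0.0515). Without the 2 farthest mice r was 0.21, so the correlation depended largely on them. By group r was 0.81 in saline, 0.27 and -0.02 after 2 and 4 weeks of bleomycin, and 0.76 and 0.34 in recovery.

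Of the 14 pairs, 5 were with the muscle fibre score, the mean log2 level of 10 muscle fibre genes. For Gfra2, Ngfr and Ntf3 r was 0.45, 0.45 and 0.53 and rho 0.45, 0.41 and 0.45 (permutation p of r = 0.00302, 0.00536 and 0.00034, adjusted 0.0102, 0.0132 and 0.00153, and adjusted p of rho = 0.0127, 0.0225 and 0.0132). Without the 2 farthest mice r was 0.31, 0.26 and 0.43. For Gdnf and Artn r was 0.51 and 0.38 and rho 0.35 and 0.37 (permutation p of r = 0.0045 and 0.0189, adjusted 0.0121 and 0.0364, and adjusted p of rho = 0.0515 and 0.0396), and without the 2 farthest mice r was 0.18 and 0.24. In the 42 mice 1 of these 5, Ntf3, passed (0.43, permutation, adjusted p = 0.0402).

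Among the members, Gfra2 and Ngfr were most alike over the deviations of the 44 mice (r = 0.81), followed by Gfra1 with Gfra2 (0.71) and with Gfra3 (0.70), while Nrtn and Ntf3 went against Ret (-0.58 in both). These values, like those that follow, are descriptions, and the genes share the libraries and their normalization. Across all genes tested, the 3 most like Gfra2 were Col15a1, Aebp1 and Tgfb1i1 (0.90, 0.90 and 0.89). Those most like Gfra3 were Nid2, Ednra and Matn2 (0.85, 0.84 and 0.82). Those most like Ret were Enc1, Sorcs2 and Sardh (0.93, 0.91 and 0.90), of which Sorcs2 also stood in the list of p75 partners. Ngfr was most like Arhgef40, Mrgprf and Col15a1 (0.86, 0.85 and 0.85).

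For the other members the likeness was lower. Gfra1 was most like Acsf2, Daam2 and Prkacb (0.80 in each), Nrtn most like Dgcr6, Cox14 and Cst3 (0.82, 0.81 and 0.80), and Gdnf most like Fst, Ccdc3 and Bcar1 (0.77, 0.76 and 0.75). Ntf3 was most like Ackr4, Fgf13 and Cd59a (0.72, 0.71 and 0.71). Artn, with the fewest reads, had the lowest values, 0.62 with Pkm and 0.61 with Sypl2.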

How the data were processed

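Skin RNA of 44 mice (mRNA libraries, HiSeq 2500) was measured, and the authors aligned reads to mm10 with STAR 2.4.0 and deposited DESeq2 1.12.3 normalized counts (a signal: gene counts divided by size factors). How reads were assigned to genes, and whether strand was used, is not given in the sources used here. Whole reads could be recovered for 100.0% of values (tolerance 0.01 of a read), a test that says little where 1 read is worth nearly 1 normalized count (0.99 and 0.988 in 2 mice). Of 43411 genes, 42929 matched a symbol (98.9%).

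Genes with a mean above 3 were tested on log2(normalized count + 1) with limma 3.58.1 (trend, R 4.3.3), all 5 groups in 1 fit, with Benjamini-Hochberg adjustment over all genes tested. The pseudocount of 1 understates differences of low genes. Calls needed a fold above 1.5, as in the study's methods. Alternatives were a pseudocount of 0.1, other filters (none, or at least 10 in at least 6 mice), no fold limit, TMM scaling, 42 mice, only the groups compared, a replicate block, edgeR 4.0.16, DESeq2 1.42.0, and each mouse left out. The fits were tested on simulated data. Correlations used deviations from group means and 100000 permutations within groups, for which the smallest p is 1e-05. Reads on genes ranged from 8509094 to 15285577 per mouse, and Artn rested on 3 to 47 of them.

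All 9 members are named, with the pathway genes that passed and the 3 genes most like each member, except a few genes that are not reported here but stay in the counts. Members and lists were chosen with earlier results of these data known. The labels give no batch. Each replicate is a separate mouse.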

Additional observations from a re-analysis of the deposited data

Results flagged for a closer look

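Among 45 sets of values (9 genes in 5 groups of 6 to 10 mice), 2 held a mouse whose gap to the nearest other mouse exceeded Dixon's 95% critical value, and chance gives about 1 in 20. Gaps and ranges were taken on log2 of the normalized count plus 1, not on the normalized counts. Gdnf was 42.1 normalized counts in mouse 2 of recovery 10 weeks, with a gap of 0.608 of the range of the 8 mice. Ret was 219.0 normalized counts in mouse 4 of recovery 6 weeks, with a gap of 0.628 of the range of the 6 mice, and this mouse also had the highest hair follicle score of its group.

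The effect of bleomycin differed between 2 and 4 weeks by a test of the difference itself for Artn (log2 difference 0.95, adjusted p = 0.00589 by limma, higher at 4 weeks in 9 of 10 mice than the 2 week mean) and for Gfra3 (0.87, adjusted p = 0.00391, 10 of 10 mice). Both comparisons use mice of different ages at harvest.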

How the results depend on the processing

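The number of members called against saline was 2 at 2 weeks and 0 at 10 weeks of recovery under each alternative except that without a fold limit it was 3 at 2 weeks, with Ngfr added. At 6 weeks of recovery it was 1 with no filter on low values, where Artn was lost (adjusted p = 0.0587), and between 1 and 3 when single mice were left out, with Artn lost in 4 cases and Nrtn gained in 6. The adjusted p of Artn was 0.0743 with only the groups compared, and Nrtn was then called (0.0469), as it was when genes needed 10 or more normalized counts in 6 or more mice. At 4 weeks of bleomycin the count was 3 to 4 over single mice, with Ret added, and 4 by edgeR and DESeq2. Without the fold limit Gfra1 joined the 2 members called between the bleomycin groups. The cause was not tested. No difference that was called reversed its sign. The correlation count was 8 of 27 in the 42 mice against 14.

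Without the fold limit, 6063, 6242, 1547 and 994 genes passed against saline in the 4 groups in order of time, beside 2851, 3053, 859 and 519, and in the comparisons of consecutive groups 956 and 4260 passed beside 400 and 2035. With only the groups compared, 326 genes passed at 10 weeks. Between the recovery groups 15 genes passed, and 58 did in the 42 mice, 56 with only the groups compared and 63 by DESeq2, but no member. Same-numbered mice did not deviate together at the median (78 pairs, median r 0.00, from -0.69 to 0.38, 18 above 0.1). Mice with different numbers were not compared in this way, so the check cannot decide whether the numbers pair mice. With the replicate block, 2, 3, 2 and 0 members were called against saline as before, and 2847, 3035, 1129 and 643 genes in all. On the recovered reads, edgeR called 2922, 3136, 893 and 570 genes against saline in the same order.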
